A study of Homo sapiens with 34 samples.

Results

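Developmental transcription factor genes encode proteins that bind DNA, or bind other DNA-binding proteins, and set cell identity in the embryo, such as the PAX, SOX, HOX and ZIC families. Their members among the m6Am peaks were the lines of 3 deposited peak lists whose gene name fell into 1 of 24 such families by its letters and number, and which encode a transcription factor. The ID proteins, which lack a DNA-binding region and hold back bHLH factors, and the cell cycle factors of the E2F family were counted with them. In all, 37 of 2116 lines were members, and they carried 33 of 1807 gene names. GLIDR, a long noncoding RNA whose name fits the letters of the GLI family, was left out.

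m6Am is a methylated adenosine at the first transcribed base of an mRNA, next to the m7G cap. PCIF1 writes the N6-methyl group, and the demethylase FTO removes it in the test tube. The base is usually read in a BCA context, in which B is C, G or T and A is the first transcribed base. Transcription factors such as these act as networks in the embryo, and many of their genes have several promoters, so that the first base differs between transcripts of a single gene.

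HEK293T is an established human cell line of embryonic kidney origin. In m6Am-seq, capped RNA fragments were taken with an m7G antibody (m7G-IP), treated with FTO [FTO (+)] or left without it [FTO (−)], and then taken with an m6A antibody (m6A-IP), and a peak more than 2-fold stronger without FTO was called m6Am. The 34 libraries comprised, for wild-type cells, 2 each of FTO (+) m6A-IP, FTO (−) m6A-IP, m7G-IP and input, 1 of each kind by title for cells without PCIF1, 1 CAGE library, and, for each of heat-shocked, hypoxic and untreated cells, 2 FTO (+) m6A-IP, 2 FTO (−) m6A-IP, 2 m7G-IP and 1 input. Heat shock was 2 h at 43 °C with 6 h of recovery, and hypoxia was 24 h at 1% oxygen. The library titled as m7G-IP without FTO from cells without PCIF1 has a description that names the m6A-IP, and its title was followed. Both stress lists rest on the same untreated libraries. By the study's methods, the HEK293T list is a map of the m6Am peaks of unstressed wild-type cells, while a stress list holds only peaks called different between stressed and untreated cells. A peak that is missing from a stress list is therefore not shown to be absent under that stress. Each of the 3 lists (HEK293T, heat shock, hypoxia) holds 1 set of peaks, with the outer span of each peak, introns included, and a gene name. The lists give no strand, height or count, so depth and replicate error are unknown, and no level of any gene can be read from them. Shares are given with 95% Wilson intervals over peaks or genes, which cover counting error only. The identity of the cells could not be checked against marker genes, since the lists hold no expression values.

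The bases around the annotated start (TSS) that lay nearest to the 5′ end of the span are printed for 14 members, because m6Am can form only where transcription begins with A. They are PAX6, ZIC2, the members in a stress list and further members with short spans. Each sequence is the transcribed strand of GRCh37 from 15 bases before the start to 14 after it, and the capitals mark the first transcribed base and the 2 bases before it. In 5 of the 14, the capitals were BCA.
PAX6 (chr11:31839495-31839524, minus strand): agcgcctgcctgaGCAccctcttttcttat
HES1 (chr3:193853922-193853951, plus strand): cagggcctagggaTCAcacaggatccggag
TEAD1 (chr11:12695953-12695982, plus strand): ttcattcctgtccTCAttccgaacattctt
ID1 (chr20:30193071-30193100, plus strand): aagctgtggctccGCActctcattccacgt
E2F2 (chr1:23857711-23857740, minus strand): agaaaaaaaagagGCAgagaaagactcaag
In the remaining sequences the capitals were another triplet, although A was the first base in HOXB3 and POU3F3.
ZIC2 (chr13:100634023-100634052, plus strand): tctccgcctggctTTGgactcttctcctcc
KLF3 (chr4:38665803-38665832, plus strand): agccccgggaggcTCGcagagcgagcggcg
FOXD1 (chr5:72744588-72744617, minus strand): ggtccgccctctcCTGgactcagccctggc
HOXB3 (chr17:46651371-46651400, minus strand): ctctcctttgttaTTAttcaacagcaaatc
POU3F3 (chr2:105470558-105470587, plus strand): cggcggagggtaaACAttcgacagtccccg
HOXA9 (chr7:27205131-27205160, minus strand): cggtgccaccaagTTGttacatgaaatctg
ID4 (chr6:19837586-19837615, plus strand): cgcggcgggccggGCGagagcgtagtggag
HOXA7 (chr7:27196280-27196309, minus strand): tgtgggcggtcacGTGctgcggcgagctcc
TCF12 (chr15:57210827-57210856, plus strand): gagggatccggagGCGagccgagcgcggtg
In all, 7 of the 14 starts had A as their first base, and 11 of the 14 lay inside the deposited span. The annotation gives 1 position per transcript model, so a first base a few bases away would not be seen here.

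The HEK293T list named 28 of the 217 protein-coding genes of these families (12.9%, interval 9.08 to 18.0%), on 29 lines, beside 7.13% of all 20149 protein-coding genes. The zinc finger genes named ZNF and a number are another large group of transcription factor genes, and 32 of 515 were in the list (6.21%, interval 4.44 to 8.64%). The difference between these shares was not tested, and the lists do not show which of the genes are transcribed in these cells. By lines, members made up 29 of 1652 in the HEK293T list (1.76%), 7 of 390 in the hypoxia list (1.79%) and 1 of 74 in the heat shock list (1.35%). The stress lists are selections of changed peaks, so these shares do not compare m6Am between the conditions. All shares and absences refer to the lists as deposited. The HEK293T list has as many lines as the study reports peaks. Both stress lists have fewer lines than the changed m6Am peaks it reports, so they may not be complete.

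The members were spread over 17 of the 23 families with a protein-coding gene whose name the rule can match. The rule matches no NKX gene, since these names carry a hyphen. Among homeodomain and paired-domain genes, PAX3 and PAX6, which pattern the neural tube and eye, were 2 of 9 PAX genes. MEIS2, a partner of HOX proteins on DNA, was 1 of 3 MEIS genes. POU2F1 (OCT1), a widely expressed POU factor, was 1 of 16 POU genes in the HEK293T list, and POU3F3, a factor of brain and kidney, was named in the hypoxia list alone. Among HMG-box genes, SOX5 and SOX18, which act in cartilage and in blood and lymph vessels, were 2 of 19 SOX genes. TCF7L2, which carries the Wnt signal with β-catenin, and TCF12, a bHLH protein, were 2 of 10 TCF genes.

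Among zinc finger families, KLF5 was 1 of 18 KLF genes in the HEK293T list and SALL2 was 1 of 4 SALL genes. KLF3, a repressor, came in the heat shock list and ZIC2, a forebrain factor, in the hypoxia list. Of bHLH and HLH genes, HES1, a repressor that Notch signalling switches on, was 1 of 7 HES genes, and ID1 and ID4 were 2 of 4 ID genes. TEAD1 and TEAD3, the DNA-binding partners of YAP1, were 2 of 4 TEAD genes, and E2F2 and E2F3, activators of S-phase genes, were 2 of 8 E2F genes. TBX3 was 1 of 13 TBX genes and TFAP2A, a neural crest factor, 1 of 6 TFAP genes. The lists named no gene of the LHX, GATA, IRX, PBX, LEF or GLI families. These families have 1 to 8 genes each, so that a count of 0 says little about them. FOXD1, a factor of the kidney stroma, was the 1 of 17 FOX genes the name rule covers, and it was in the hypoxia list alone.

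**Figure D1:**
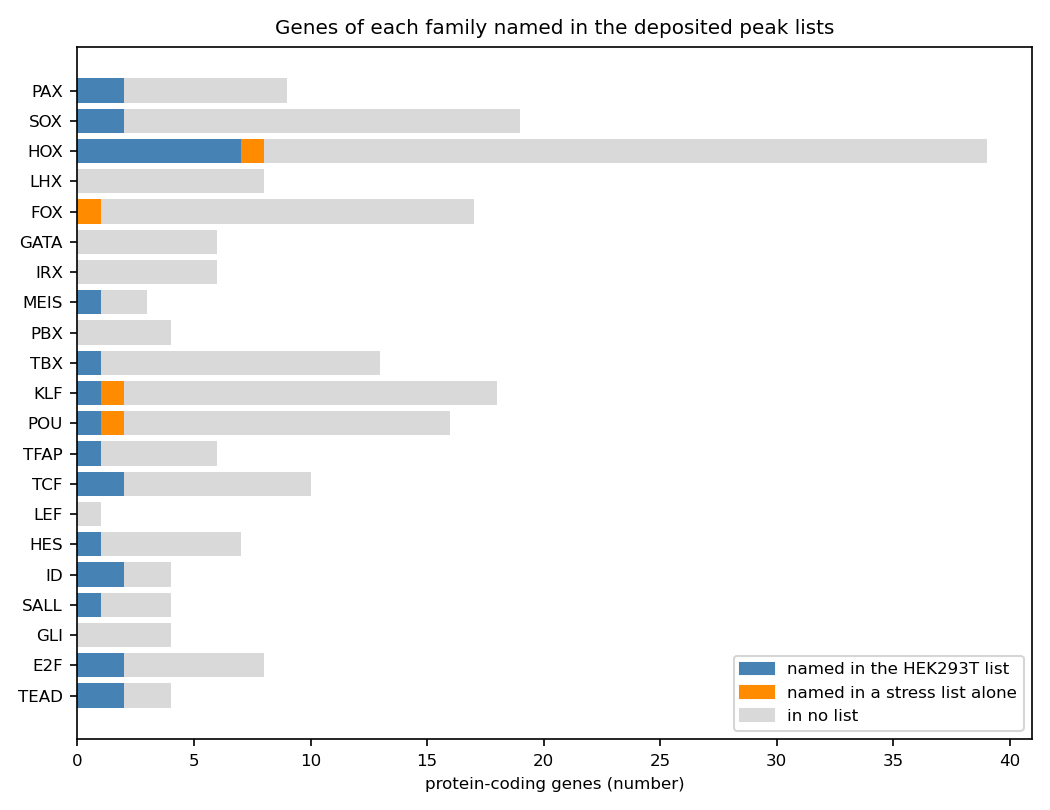
Protein-coding genes of the families whose listed genes are all described in the text (number, x axis), with the genes named in the HEK293T list in blue, those named in a stress list alone in orange and the rest in grey. HOX has the most listed genes, 7 of 39 in the HEK293T list and 1 more in the hypoxia list.

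HOX genes lie in 4 clusters and are numbered by their order along them, from anterior (1) to posterior (13) action in the embryo. In the HEK293T list, 4 of 11 HOXA genes (HOXA7, HOXA9, HOXA10, HOXA11), 1 of 10 HOXB genes (HOXB9), 2 of 9 HOXC genes (HOXC11, HOXC13) and 0 of 9 HOXD genes were named. By number, 6 of the 16 genes of groups 9 to 13 were in the list and 1 of the 23 genes of groups 1 to 8, a split that was seen in the data and not tested. These counts go by name, and they leave out HOXB2, of group 2, which had an annotated start in a HEK293T span under another name. HOXB3 was named in the hypoxia list. The 5 HOXA spans lay within 28747 bp, and the gaps between neighbours were 8703, 8476, 5389 and 4567 bp. Genes of one cluster share a chromosomal neighbourhood, so their peaks may not be independent of each other, which was not tested.

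**Figure D2:**
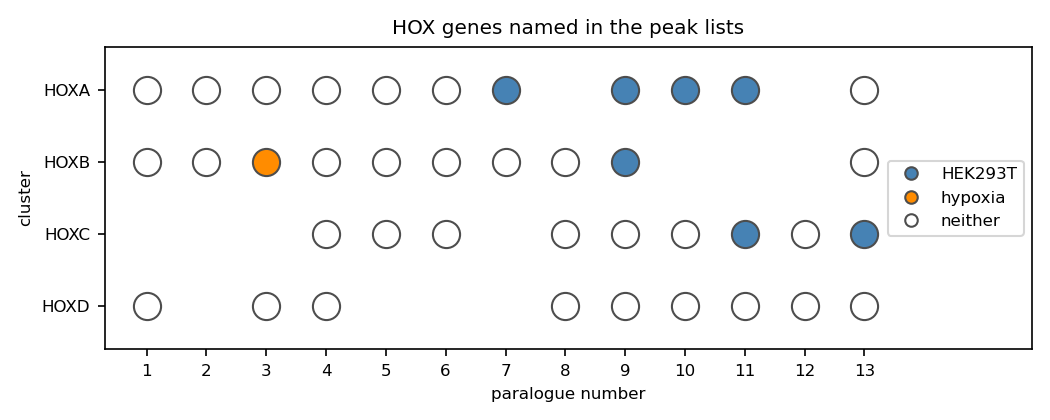
HOX genes by cluster (y axis) and paralogue number (x axis), filled blue where the HEK293T list names the gene, orange where the hypoxia list alone does, and open where neither does. Listed HEK293T genes sit at numbers 7 to 13, and the HOXD row is open throughout.

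HOXA10 was the only member with different spans on 2 lines of the HEK293T list. The first, chr7:27213626-27213955, was 330 bp long, with 300 bp of coding sequence, and began 5925 bp inside the outermost annotated start of the gene. The second, chr7:27219345-27219880, was 536 bp long, held no coding sequence, and began at that outermost start, where the triplet was TTA. The first had 314 bp on exons of HOXA10 and 16 bp of intron, while the second was exonic throughout. The gene is on the minus strand, and only the second span holds the start of another annotated protein-coding gene model, on the same strand. The first span lies wholly within the annotated bounds of HOXA9, also on the same strand. HOXA9 (chr7:27205000-27205149, 150 bp) and HOXA7 (chr7:27196089-27196296, 208 bp) also had their peak away from the outermost start, by 9650 and 1259 bp. The span of HOXA11, chr7:27224448-27224835, held 377 bp of coding sequence among its 388 bp.

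Member spans in the HEK293T list had a median length of 331 bp (95% interval from the order of the lengths, 240 to 1760 bp), beside 1228.5 bp for all peaks, which lies within that interval, and 4859 bp for the zinc finger genes. In 19 of 29 (65.5%, interval 47.3 to 80.1%) the span was at most 1000 bp, beside 47.3% of all peaks. The part of the span within exons of the gene had a median of 330 bp, close to the 354.5 bp of the 1558 peaks that could be placed in a Gencode gene of their name. No intron of the gene lay in 17 of the 29 member spans (58.6%), beside 41.1% of all placed peaks and 21.2% of the zinc finger genes.

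The span of ID1, chr20:30193086-30193233, was among the shortest, with 148 bp, all of it exonic, and 43 bp coding. The longest was that of SOX5, chr12:24521554-24715524, with 193971 bp, of which 499 bp were exonic. POU2F1 (144653 bp, 1549 bp exonic) and E2F3 (77971 bp, 905 bp exonic) had the same form, a small exonic part in a span that was mostly intron. The exonic part counts all annotated exons of the gene in the span, and the lists do not show which of them a peak covers. In 5 of 29 members (17.2%) the exonic part was under 10% of the span, beside 30.9% of all placed peaks. Such spans can reach over other genes, as in E2F3, whose span holds the start of E2F3-IT1.

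**Figure D3:**
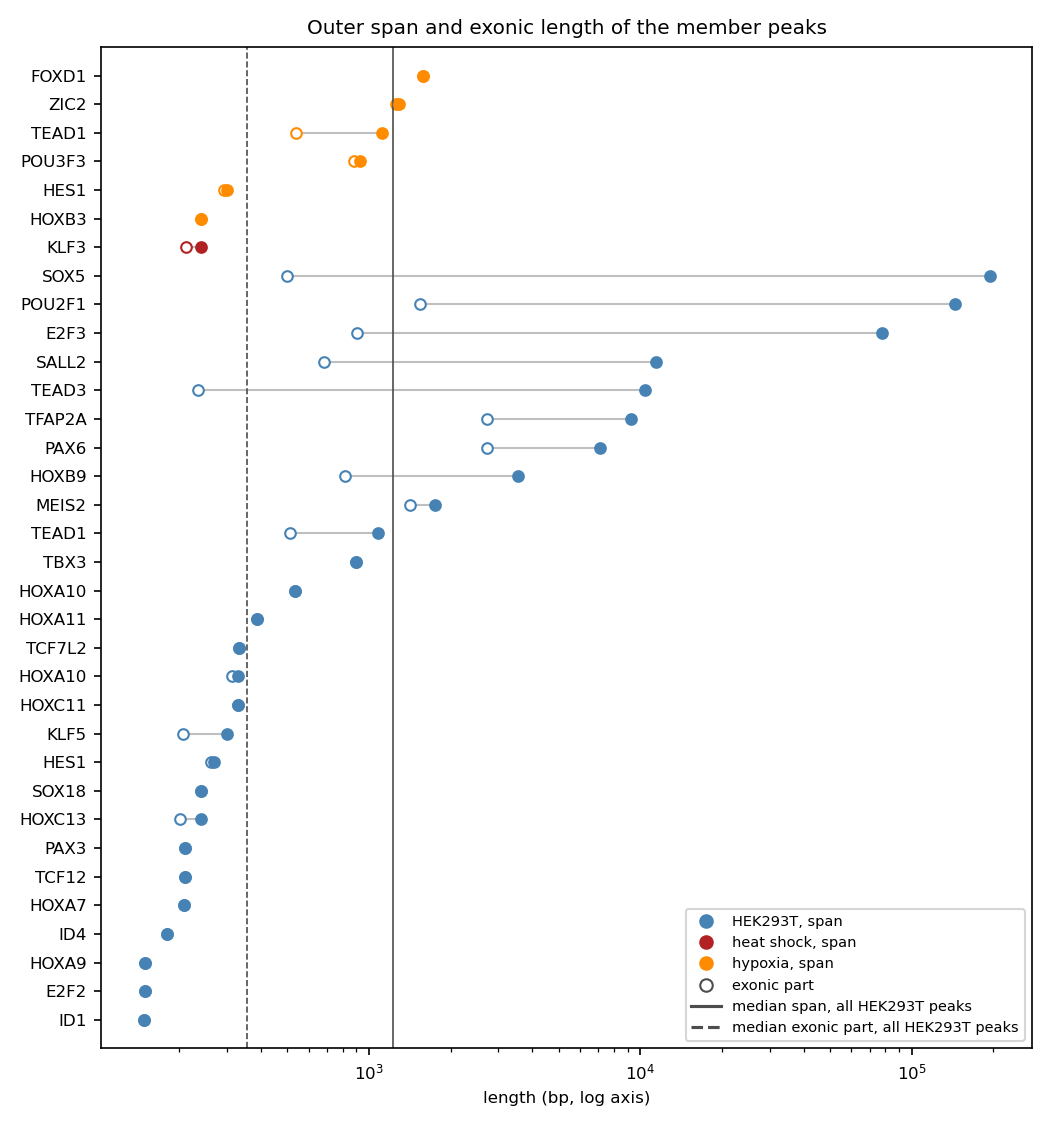
Outer span (filled points) and exonic part (open points) of the distinct spans of 31 members in bp on a log axis, with the medians of all HEK293T peaks as lines. Exonic parts run from 148 to 2728 bp in the HEK293T spans drawn, while these spans run from 148 to 193971 bp.

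PAX6, the master regulator of eye development, had a span at chr11:31832398-31839509 of 7112 bp on the minus strand. Of it, 2714 bp were exonic, 4398 bp intronic and 0 bp coding, so that it covered noncoding leader exons and introns between them. The gene has 66 annotated starts, and 30 of them fell in the span. The 5′ end of the span was the outermost start itself, with GCA as its triplet. Of the 30 starts, 11 had A as the first base and 6 stood in a BCA context. On the other strand, 12 starts of the noncoding RNA PAUPAR lay within the span, as did 2 starts of a protein-coding gene model without a symbol, and without strand the list does not separate them from PAX6.

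Measured from the closest annotated TSS, the 5′ ends of member spans had a median distance of 7 bp, beside 15 bp over all placed peaks. It coincided with a TSS in 9 of 29 members (31.0%), beside 27.0% of all, and was within 50 bp in 26 of 29 (89.7%, interval 73.6 to 96.4%), beside 72.0%. Among the 9 were TCF7L2, PAX6, HOXC11, MEIS2, PAX3, ID1, ID4 and the second HOXA10 span. HOXB9 began 115 bp upstream, the farthest of the 29 from a TSS, and KLF5 93 bp upstream. Downstream starts were nearer, at 65 bp for SALL2 and 27 bp for E2F3. In 5 of 29 members (17.2%, interval 7.60 to 34.5%) the span began over 500 bp from the outermost start, beside 25.8% of all placed peaks. Among these were HOXA7, HOXA9, the first HOXA10 span and KLF5 at 3936 bp, each near an inner annotated start.

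**Figure D4:**
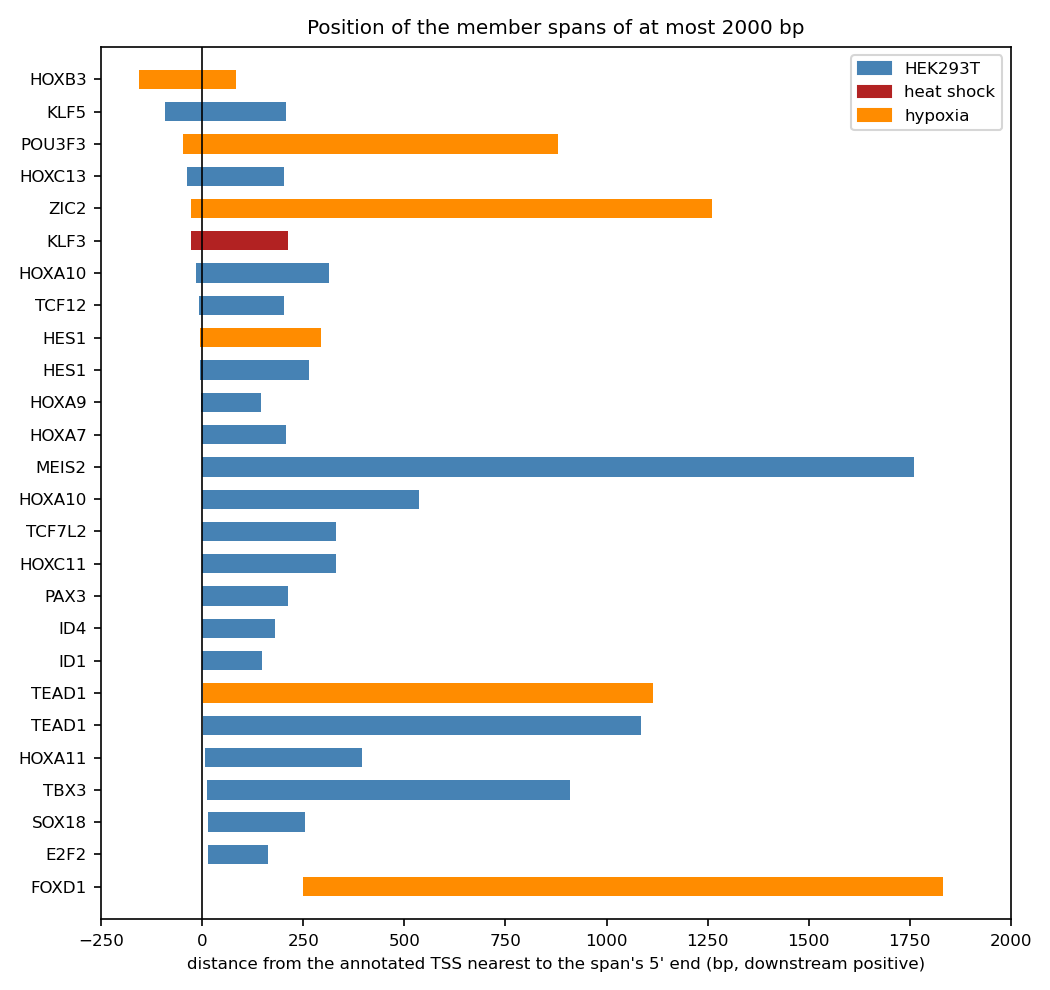
Extent of 26 distinct member spans of at most 2000 bp, in bp from the TSS nearest to the 5′ end of the span (0, downstream positive), coloured by list; 8 longer spans are not drawn. Most bars begin at or near 0, and FOXD1 begins 250 bp downstream.

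A TSS of the named gene lay inside 25 of 29 member spans (86.2%, interval 69.4 to 94.5%), beside 94.4% of all placed peaks. Those without included E2F2, SOX18 and HOXA11, whose spans began 13, 13 and 7 bp downstream of a TSS. Coding sequence was reached by 16 of 29 (55.2%), beside 63.1%. With any TSS in the span, A was the first base in 18 of 29 members (62.1%, interval 44.0 to 77.3%) and BCA stood in 12 (41.4%, interval 25.5 to 59.3%), beside 76.7% and 55.7% of all placed peaks. Members held a median of 2 starts in the span and all placed peaks 3. With the nearest TSS alone, A was the first base in 19 of 29 members (65.5%, interval 47.3 to 80.1%) and BCA stood in 14 (48.3%, interval 31.4 to 65.6%), beside 45.3% and 28.0%. The order of members and all peaks thus turned with the start that was read. Among spans holding a TSS, A at any of them was found in 18 of 25 members (72.0%, interval 52.4 to 85.7%) and BCA in 12 (48.0%), beside 81.2% and 59.0%. In spans with exactly 1 TSS inside, A was the first base in 6 of 9 members (66.7%, interval 35.4 to 87.9%) and BCA stood in 3 of 9 (33.3%, interval 12.1 to 64.6%), beside 59.1% and 35.5%. At all protein-coding gene starts, A was the first base in 43.6% and BCA stood in 25.4%.

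Besides the starts printed above, BCA stood at the nearest start of TCF7L2, TEAD3, HOXB9 and E2F3 as TCA, of PAX3, TBX3 and TFAP2A as GCA and of SOX18 as CCA. G was the first base in 9 of 29 members (31.0%), among them ID4, POU2F1, SOX5, TCF12 and HOXC11, beside 35.4% of all placed peaks. C was the first base in 0 of 29, beside 15.3%. An annotated start with G does not show where the RNA of these cells began. In ID4, whose span began exactly at its single annotated start, the triplet was GCG.

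**Figure D5:**
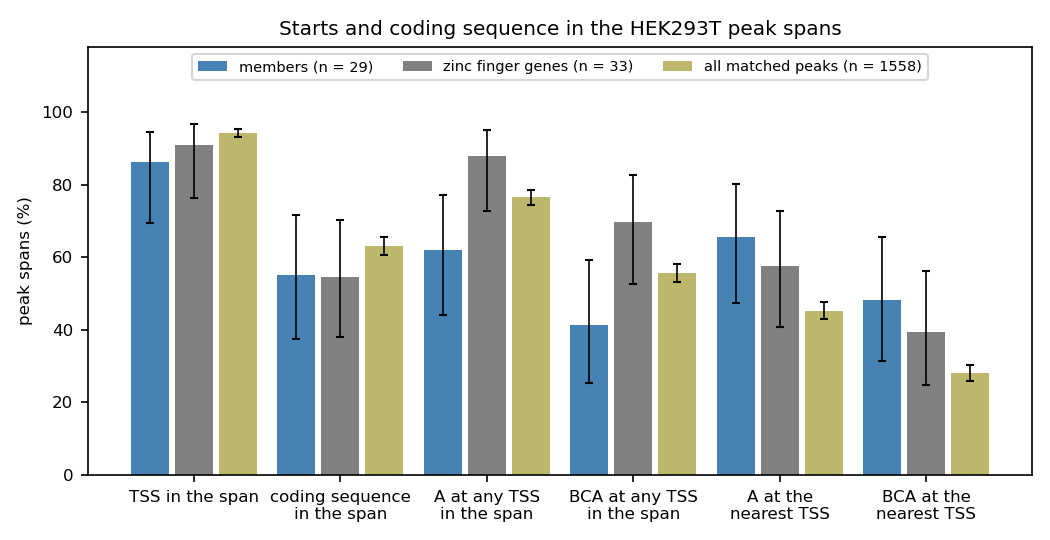
Share of HEK293T peak spans (%) with a TSS, with coding sequence, and with A or BCA at a start, for members, zinc finger genes and all placed peaks, with 95% Wilson intervals as error bars. At the nearest start, 65.5% of members and 45.3% of all placed peaks have A; at any start in the span, 62.1% and 76.7% do.

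Promoter windows of 300 bases, 250 before the nearest start and 50 from it on, were searched on both strands for 4 short motifs. TATAAA, the core of the TATA box, was in 6 of 29 member windows (20.7%, interval 9.85 to 38.4%), beside 7.57% of all placed peaks and 10.9% of all protein-coding genes, each at its outermost start. In ID1 and ID4, it began 25 and 29 bases before the start on the transcribed strand, and in the other members it lay 135 to 161 bases before it. CCAAT was in 16 of 29 (55.2%), beside 40.1% and 35.8%. GGGCGG, the GC box, was in 20 of 29 (69.0%), beside 69.7% and 52.2%. CACGTG, an E-box that reads the same on both strands, was in 4 of 29 (13.8%), namely HOXC13, HOXC11, HOXA7 and HOXA9, beside 11.0% and 8.33%. Median GC content of the windows was 64.7% in members, 63.7% in all placed peaks and 60.3% in all protein-coding genes. A match is a string in the sequence and not a bound site.

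The hypoxia list named 6 of the 217 family genes (2.76%, interval 1.27 to 5.90%), beside 1.76% of all protein-coding genes, and the heat shock list 1 (0.461%, interval 0.0814 to 2.56%), beside 0.328%. Both shares lay within counting error of the background. The stress lists are used here for spans and names, and no direction of change is given.

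HES1 and TEAD1 were the members found in both the HEK293T and the hypoxia list. The HES1 span was chr3:193853931-193854199 (269 bp) in HEK293T and chr3:193853931-193854229 (299 bp) in the hypoxia list, with the same start and an end 30 bp farther. It covered the single annotated start of the gene, with TCA as its triplet, and 30 and 60 bp of coding sequence. The TEAD1 span was chr11:12695969-12697053 (1085 bp) in HEK293T and chr11:12695969-12697083 (1115 bp) in the hypoxia list, again with the same start and an end 30 bp farther. It began 1 bp after the outermost TSS, whose triplet was TCA, and crossed 574 bp of intron without reaching coding sequence. Among 216 pairs of overlapping spans of the same gene in these lists, 33 shared an end and differed by 30 bp at the other.

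The other 4 hypoxia spans overlapped no HEK293T peak. ZIC2 stood on 2 lines with identical positions, chr13:100634010-100635299, so that the 7 lines hold 6 distinct spans. Its 1290 bp held no intron, contained 981 bp of coding sequence, and began 28 bp upstream of the TSS, whose triplet was TTG. FOXD1 (chr5:72742771-72744352, minus strand) had 1582 bp, all exonic, of which 1393 bp were coding, and its start at the outer end of the gene lay 250 bp outside the span. The other of its 2 annotated starts lay inside the span, with the triplet TTA. POU3F3 (chr2:105470526-105471451, plus strand) had 926 bp with 879 bp exonic and no coding sequence, and began 781 bp inside the gene, near a start with the triplet ACA. HOXB3 (chr17:46651302-46651541, minus strand) had 240 bp, all exonic and noncoding, and lay 30733 bp from the outermost of its 12 starts, around an inner start with the triplet TTA.

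Of the 6 hypoxia spans, 2 (33.3%, interval 9.68 to 70.0%) overlapped a HEK293T span, beside 220 of 385 distinct hypoxia spans (57.1%). Seen from the HEK293T list, 2 of 29 member lines (6.90%) overlapped a hypoxia span, beside 13.5% of all lines. Since the hypoxia list holds changed peaks only, these overlaps count HEK293T peaks that were also called changed, not peaks that persisted under hypoxia. The interval for the 6 spans includes the share of the whole list, and the difference was not tested.

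KLF3 was the member of the heat shock list, at chr4:38665790-38666029 (240 bp, plus strand). The span began 28 bp upstream of the outermost TSS, contained all 3 annotated starts and no coding sequence. It overlapped no HEK293T peak (0 of 1, interval 0 to 79.3%), while 44 of 73 distinct heat shock spans did (60.3%). Seen from the HEK293T list, 0 of 29 member lines overlapped a heat shock span, beside 2.54% of all lines. The nearest start had the triplet TCG, and another of the 3 had GCA. KLF3-AS1, a noncoding RNA of the opposite strand, had 2 starts in the same span, so the list does not tell which of the genes the peak belongs to.

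Pathways and regulators linked to these factors, together with cap and N6-methyladenosine enzymes, were read from 9 lists with 146 genes. The HEK293T list named 22 of them, the hypoxia list 7 and the heat shock list 2, beside the same 7.13%, 1.76% and 0.328% of all protein-coding genes. The 9 lists were chosen with earlier results of these data known, and no count over them was tested. Of the Hippo pathway, which controls TEAD factors, 5 of 13 genes were in the HEK293T list. YAP1, the TEAD coactivator (361 bp span), the kinase gene STK4 (11998 bp), its scaffold SAV1 (300 bp), MOB1B (48390 bp) and VGLL4 (241 bp), a competitor of YAP1 for TEAD, were named. YAP1 and SAV1 were also in the hypoxia list, with spans of 359 and 270 bp.

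Of the RB and cyclin D list, which acts upstream of E2F factors, 4 of 13 genes were in the HEK293T list. CCND1 (241 bp) and CCND2 (270 bp) encode D-type cyclins, and CDKN2A (419 bp) and CDKN2B (52040 bp) encode inhibitors of their kinases. Only 4000 bp of the CDKN2B span lay in exons of that gene. Starts of other genes in the pathway spans were not looked for, so this peak may belong to another gene. Of Polycomb and trithorax regulators, which hold HOX genes silent or active, 6 of 22 were in the HEK293T list. EZH1 (17359 bp), EZH2 (37128 bp) and JARID2 (389 bp) belong to the Polycomb complex that methylates histones. BMI1 (269 bp) and PCGF2 (7870 bp) belong to the other Polycomb complex, and ASH2L (909 bp) to the trithorax side. JARID2 and PCGF2 were also named in the hypoxia list, with spans of 330 and 405 bp.

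Of the Wnt list, which leads to TCF7L2, 3 of 31 genes were in the HEK293T list, the kinase gene GSK3B (601 bp), WLS (298 bp), needed for Wnt secretion, and the corepressor gene TLE4 (720 bp). GSK3B was also in the heat shock list (571 bp), and the receptor gene FZD6 (1260 bp) was in the hypoxia list. Of the Hedgehog list, 1 of 13 was in the HEK293T list, the coreceptor gene BOC (421 bp), which was also named in the hypoxia list (420 bp) together with the receptor gene PTCH1 (1980 bp). Of the BMP list, which controls ID genes, 2 of 17 were named, the receptor genes BMPR2 (1019 bp) and ACVR2A (51867 bp), and BMPR2 was also in the heat shock list (450 bp). Of the cofactors of homeodomain proteins, 1 of 10 was named, DACH1 (360 bp). The 3 lists named 0 of the 16 Notch pathway genes upstream of HES1, and 0 of the 11 genes of cap and N6-methyladenosine enzymes, among them PCIF1 and FTO. Since the HEK293T list named only 7.13% of all protein-coding genes, a count of 0 among so few genes says little.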

How the data were processed

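The authors used Trim Galore 0.6.6 and cutadapt for trimming and HISAT2 for alignment to hg19, called peaks with exomePeak and MACS2, kept those in m7G-IP, and called m6Am where FTO (−) was more than 2-fold FTO (+). They deposited 1 m6Am map for HEK293T and, for each stress, a list of peaks called different from untreated cells by exomePeak and DESeq2, with a stated limit of 2-fold that was not tested here. How replicates were combined is not given in the sources used here. A further column of both stress lists is headed as a log2 fold change but holds no negative value, so its scale is in doubt and it was not used. Supplementary values were not used.

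Positions were read as GRCh37, numbered from 1, since 244 HEK293T spans began where an exon begins and 20 did when moved by 1 base. Names were matched to Gencode release 44, with older symbols from RefSeq (GRCh38.p14, names only), and 1558 of 1652 HEK293T lines were placed. Sequences came from the GRCh37 genome. Overlap was counted from 1 bp. No test was run, since each list holds 1 set of peaks. Functions were tested on simulated data. Members and lists were chosen with earlier results of these data known. Named were 31 members and each pathway gene in a list, and some members are not reported here one by one. Alternatives were other name rules, overlaps, starts and spans. Python 3.11.15, SciPy 1.17.1, pyfaidx 0.9.0.4 and Matplotlib 3.10.9 were used.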

Additional observations from a re-analysis of the deposited data

How the results depend on the processing

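Of 29 alternatives over 10 results, 27 left counts within 1.5 times, or shares and the median within their interval. Some of these could hardly move their result, since the HEK293T list repeats no member span and a wider TSS window can only add spans. The member lines of the heat shock list rose from 1 to 2 with whole families, since FOXP1 then counts, and the hypoxia spans shared with HEK293T fell from 2 to 0 when both ends had to match exactly. The HEK293T member lines ranged from 25 without ID and E2F genes to 32 with whole families. The share of family genes in the HEK293T list was 11.0% over genes of every biotype and 11.5% when a TSS had to lie in a span. The median span was 240 bp among spans of at most 1000 bp, a cut on length that can only lower it. A TSS within 50 bp was found for all 29 HEK293T member spans. No paired analysis was possible because replicates were not kept apart in the lists and no test was run. Depth is unknown, so the lists cannot show which unlisted genes lay below detection.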

Other observations

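Noncoding genes whose names begin with those of HOX and FOX genes also had peaks in the HEK293T list. HOXA10-AS had a span of 552 bp (452 bp exonic), HOXB-AS1 one of 1486 bp (149 bp exonic), FOXD3-AS1 one of 148 bp (all exonic) and FOXP4-AS1 one of 24384 bp (576 bp exonic). HOXB2 had an annotated start within a HEK293T span without being named there, the 1 such gene of the families. Transcription factor genes with similar names that fell outside the name rule were FOXP1 (85733 bp in HEK293T and 85774 bp in the heat shock list), TCFL5 (270 bp), NKX2-5 (269 bp) and, in the hypoxia list, FOXJ3 (24128 bp).

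Of the 17 HEK293T member spans without intron, 11 had a length within 1 bp of a multiple of 30 bp (64.7%, interval 41.3 to 82.7%), beside 462 of 640 such spans in the whole list (72.2%). Exact multiples were 7 of the 17 (41.2%, interval 21.6 to 64.0%), beside 28.9%. Identical lines as for ZIC2 were seen for 4 other hypoxia genes, MFSD11, SLC25A5, TMPO and TROVE2, and for TMEM107 in the heat shock list.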
